A study of Mus musculus with 6 samples.

Results

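Cholesterol is built in the cell from acetyl-CoA, and the 7 genes described here cover that route from its early steps to its end, together with its main regulator. They were chosen by name as sterol synthesis genes and found by gene symbol among the 55335 genes of each count file, and all 7 were detected and tested. They are Hmgcs1, Idi1, Fdft1, Sqle, Cyp51 and Dhcr7, which code for enzymes, and Srebf2, which codes for the transcription factor SREBP2. No receptor for lipoprotein uptake is among the 7, so they are called sterol synthesis genes here, and a separate list covers uptake and transport.

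RNA of the substantia nigra, a midbrain nucleus rich in dopaminergic neurons, was sequenced in bulk from C57 mice. The 6 libraries form a control group of 3, with the title WT, and a group of 3 with the title shDNAJB1, where sh stands for a short hairpin RNA and Dnajb1 is the gene of an HSP40 co-chaperone. The comparison of the groups asks how transcripts differ with that knockdown. No source used here gives the age of the mice, the vector, the cells that the hairpin reached or whether the controls carried a hairpin. The labels do not tie the libraries to separate mice, so p-values reflect the spread among these 6 samples alone, and it may be technical.

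In the mevalonate pathway, acetyl-CoA units are joined and reduced to mevalonate and then turned into isoprenoid units, which are condensed to squalene. The sterol branch then closes squalene into lanosterol and trims it to cholesterol. When sterol is scarce in the membrane of the endoplasmic reticulum, SREBP2 is carried to the Golgi by SCAP, cut by proteases and released to the nucleus, where it activates the genes of this pathway, including its own, through sterol regulatory elements. The brain makes nearly all of its own cholesterol, because lipoproteins of the blood do not pass the blood-brain barrier, and oligodendrocytes use large amounts of it for myelin.

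SREBP2 and its partner factors NF-Y and Sp1 are known to act through short promoter motifs, which the windows of the members were read for. Promoter windows of RefSeq (build GRCm38.p6, the same assembly as mm10), which run from 250 bases before a gene's start to 50 bases after it, were matched by symbol for 5 of the 7 members, Hmgcs1, Idi1, Cyp51, Dhcr7 and Srebf2. They were searched on both strands for a sterol regulatory element (TCACNCCAC), its shorter core (TCACCCCA, added after the windows had been read, and overlapping the first), the NF-Y box CCAAT, the Sp1 box GGGCGG and the E-box CACGTG. The 4 windows shown are those of members with a single window, so that the member with the element, the regulator with the core and the pair of members with the most similar profile over the libraries can be compared. They lie at chr13:119690101-119690400 (plus strand, Hmgcs1), chr15:82147019-82147318 (plus strand, Srebf2), chr13:8885356-8885655 (plus strand, Idi1) and chr5:4104648-4104947 (minus strand, Cyp51). Each is printed 5′ to 3′ on the strand of its gene, and capitals mark every match to a motif, or its reverse complement.
Hmgcs1: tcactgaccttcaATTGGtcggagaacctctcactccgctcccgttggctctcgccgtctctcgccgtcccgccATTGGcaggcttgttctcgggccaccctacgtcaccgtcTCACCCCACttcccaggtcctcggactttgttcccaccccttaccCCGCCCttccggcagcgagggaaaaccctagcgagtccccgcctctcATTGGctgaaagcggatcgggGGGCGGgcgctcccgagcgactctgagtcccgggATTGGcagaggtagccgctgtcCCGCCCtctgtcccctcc
Srebf2: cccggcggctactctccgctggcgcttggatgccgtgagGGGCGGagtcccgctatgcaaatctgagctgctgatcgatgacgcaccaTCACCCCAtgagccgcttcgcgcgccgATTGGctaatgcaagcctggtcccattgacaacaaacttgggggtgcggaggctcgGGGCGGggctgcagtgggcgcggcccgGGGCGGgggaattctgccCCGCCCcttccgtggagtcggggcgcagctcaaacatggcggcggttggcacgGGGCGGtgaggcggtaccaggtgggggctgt
Idi1: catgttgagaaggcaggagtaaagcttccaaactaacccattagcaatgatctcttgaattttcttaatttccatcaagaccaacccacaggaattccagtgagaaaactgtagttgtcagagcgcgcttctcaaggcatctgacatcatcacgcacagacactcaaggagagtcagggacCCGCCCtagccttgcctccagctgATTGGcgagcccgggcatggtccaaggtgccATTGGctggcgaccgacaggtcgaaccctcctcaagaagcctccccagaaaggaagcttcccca
Cyp51: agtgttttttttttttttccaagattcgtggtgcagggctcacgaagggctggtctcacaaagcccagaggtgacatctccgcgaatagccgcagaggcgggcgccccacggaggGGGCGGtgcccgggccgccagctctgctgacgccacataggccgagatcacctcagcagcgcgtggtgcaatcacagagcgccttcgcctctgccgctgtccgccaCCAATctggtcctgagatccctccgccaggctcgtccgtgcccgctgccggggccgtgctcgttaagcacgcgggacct

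The sterol regulatory element TCACNCCAC was found in the Hmgcs1 window alone among the matched members, at positions 114 to 122, and in 1.24% of all 32817 windows. The core TCACCCCA was found in Hmgcs1 and in Srebf2, at positions 89 to 96 of the Srebf2 window, and in 1.56% of all windows. The NF-Y box was in the windows of all 5 matched members, with 4 matches in Hmgcs1 and 1 in Srebf2, and in 41% of all genes with a window, or 37.4% of all windows. The Sp1 box was also in the windows of all 5, with 5 matches in Srebf2, and in 38.2% of all genes with a window, or 35.6% of all windows. Dhcr7 has 3 windows, and its NF-Y boxes are only in the window at chr7:143829964-143830263. The E-box, in 7.15% of all windows, was found in 1 window of Dhcr7. Among the other 14 enzymes of the pathway, 12 were matched, of which 11 had an NF-Y box, 11 an Sp1 box and 0 the sterol element or its core. A match is a run of letters, and these data do not show whether a factor is bound there.

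Dnajb1, the target named in the label, did not differ detectably between the groups. In CPM (a gene's count as a share of the library's scaled total, times a fixed factor) it was at 59.8, 47.2 and 51.9 in control 1, 2 and 3 and at 44.3, 52.4 and 52.5 in shDNAJB1 1, 2 and 3, with edgeR adjusted p = 0.909 and a log2 fold change of -0.09 (SE 0.13). The second group is therefore called the libraries labelled shDNAJB1, and every direction refers to that label. Total counts were 24541386 to 38468363 per library. Of 18870 genes tested, 0 (0%) passed the threshold of 0.05 on the adjusted p of edgeR's quasi-likelihood fit, 1202 (6.37%) had an unadjusted p under 0.05, limma-voom called 0 and DESeq2's Wald test called 56. All 9 dopaminergic markers were tested, and their summed level ranged from 935 to 3265.7 CPM over the 6 libraries, so the share of dopaminergic RNA differed between libraries of the same group.

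No sterol synthesis gene passed the test between the groups. Of the 7 members 0 passed an adjusted p of 0.05 by edgeR or by DESeq2, where 0% of all genes passed by edgeR and 0.322% of 17396 by DESeq2. None of the 7 had an unadjusted p under 0.05 by edgeR, against 6.37% of all tested genes, or 3.33% counting lower genes alone. The fitted log2 fold change was below 0 for 6 of the 7, against 49.2% of all tested genes, and its median was -0.20 over the members and 0.01 over all tested genes. The groups overlapped for all 7 members, whereas they did not overlap for 14.0% of all tested genes. The members' log2 fold changes ran from -0.31 for Dhcr7 to 0.02 for Hmgcs1, and counting error was 0.879% to 4.01% of a member's count in a library, from 622 to 12952 counts. Counting errors cover counting only.

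**Figure D1:**
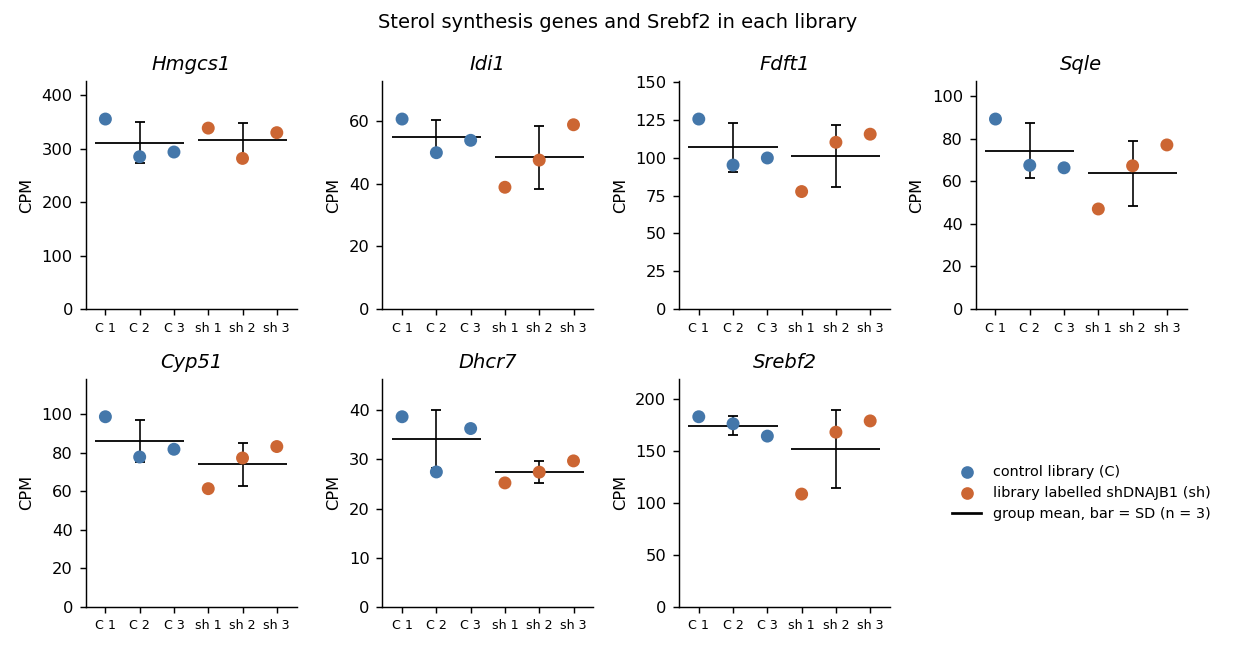
Level of each member in each library, in CPM on axes that start at 0, with blue points for the 3 control libraries, orange points for the 3 libraries labelled shDNAJB1, and lines and bars for the group mean and SD (n = 3). Control 1 is the highest library for every member, and shDNAJB1 1 is the lowest for 6 of the 7, the exception being Hmgcs1.

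Hmgcs1 codes for the cytosolic HMG-CoA synthase, which makes HMG-CoA at the start of the mevalonate pathway. Control 1, 2 and 3 had 355, 285 and 294 CPM, and shDNAJB1 1, 2 and 3 had 339, 282 and 330.0 CPM. Control 1 was highest and shDNAJB1 2 lowest, and the libraries labelled shDNAJB1 lay inside the control range apart from shDNAJB1 2. From means of 311 ± 38.4 and 317 ± 30.6 CPM (SD, n = 3 each) came a log2 fold change of 0.02 (SE 0.14, 95% interval -0.29 to 0.34, edgeR adjusted p = 0.985). The gene lies on chromosome 13 of mm10, positions 119690379 to 119708260, and 557 of its 4594 exonic bases overlap the antisense gene Gm48342, which had 7 to 42 counts per library against 7854 to 12952 for Hmgcs1.

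Idi1 codes for the isomerase that interconverts the 2 building units of isoprenoids. It was at 60.5, 49.8 and 53.8 CPM in control 1, 2 and 3 and at 38.8, 47.5 and 58.7 CPM in shDNAJB1 1, 2 and 3. Only shDNAJB1 1 stood well below the controls, and shDNAJB1 3 was above 2 of them. The log2 fold change was -0.18 (SE 0.16, 95% interval -0.56 to 0.20, edgeR adjusted p = 0.846), from means of 54.7 ± 5.42 and 48.3 ± 9.98 CPM (SD, n = 3 each). Idi1 lies on chromosome 13, positions 8885501 to 8892451.

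Fdft1 codes for squalene synthase, the first enzyme committed to sterols. Control 1, 2 and 3 had 126, 95.2 and 99.9 CPM, and shDNAJB1 1, 2 and 3 had 77.7, 110.3 and 116 CPM. The libraries shDNAJB1 2 and 3 were above control 2 and 3, and shDNAJB1 1 was below every control. The log2 fold change was -0.08 (SE 0.18, 95% interval -0.49 to 0.34, edgeR adjusted p = 0.946), from means of 107 ± 16.4 and 101 ± 20.5 CPM (SD, n = 3 each). Fdft1 lies on chromosome 14, positions 63145150 to 63179578, and 774 of its 4227 exonic bases overlap Ctsb, the cathepsin B gene, on the opposite strand, at 14436 to 24772 counts per library. No source used here gives the strand setting of the counting, so the Fdft1 count is uncertain by the reads of that overlap.

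Sqle codes for squalene epoxidase, a flow-limiting step of the sterol branch. It was at 89.1, 67.5 and 66.3 CPM in control 1, 2 and 3 and at 47.0, 67.2 and 77.0 CPM in shDNAJB1 1, 2 and 3. Among the libraries labelled shDNAJB1 the highest was 1.64 times the lowest, with shDNAJB1 2 between control 2 and 3. The log2 fold change was -0.22 (SE 0.20, 95% interval -0.68 to 0.24, edgeR adjusted p = 0.843), from means of 74.3 ± 12.9 and 63.7 ± 15.3 CPM (SD, n = 3 each). Sqle lies on chromosome 15, positions 59315077 to 59331192.

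Cyp51 codes for the cytochrome P450 that removes a methyl group from lanosterol. Control 1, 2 and 3 had 98.6, 77.7 and 81.7 CPM, and shDNAJB1 1, 2 and 3 had 61.3, 77.2 and 83.1 CPM. The libraries shDNAJB1 2 and 3 were close to control 2 and 3, and the outer values were control 1 and shDNAJB1 1. The log2 fold change was -0.22 (SE 0.15, 95% interval -0.57 to 0.13, edgeR adjusted p = 0.808), from means of 86.0 ± 11.1 and 73.9 ± 11.3 CPM (SD, n = 3 each). Cyp51 lies on chromosome 5, positions 4081145 to 4104746, and 166 of its 4415 exonic bases overlap Akap9 on the opposite strand. Akap9 had 2049 to 5555 counts per library against 1511 to 3592 for Cyp51. With the strand setting unknown, the Cyp51 count is also uncertain by the reads of that overlap.

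Dhcr7 codes for the reductase of the last step to cholesterol. It was at 38.7, 27.5 and 36.3 CPM in control 1, 2 and 3 and at 25.2, 27.4 and 29.7 CPM in shDNAJB1 1, 2 and 3. Control 2 was at the level of shDNAJB1 2, which made the groups overlap, while control 1 and 3 were above all libraries labelled shDNAJB1. Dhcr7 had the lowest fold change of the members, at a log2 value of -0.31 (SE 0.15, 95% interval -0.67 to 0.04, edgeR adjusted p = 0.770), from means of 34.2 ± 5.92 and 27.5 ± 2.24 CPM (SD, n = 3 each). As a share of the control level, the interval runs from 63.0% to 103%. Dhcr7 lies on chromosome 7, positions 143823145 to 143848410.

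Srebf2, the regulator, was at 183, 176 and 164 CPM in control 1, 2 and 3 and at 108, 168 and 179 CPM in shDNAJB1 1, 2 and 3. The 3 controls and shDNAJB1 2 and 3 lay close together, and shDNAJB1 1 stood apart below them. In the controls the highest value was 1.11 times the lowest, and among the libraries labelled shDNAJB1 it was 1.65 times. The log2 fold change was -0.20 (SE 0.19, 95% interval -0.63 to 0.23, edgeR adjusted p = 0.846), from means of 174 ± 9.41 and 151 ± 37.8 CPM (SD, n = 3 each). Srebf2 lies on chromosome 15, positions 82147181 to 82205379. A protein such as SREBP2, which is set free by cutting, can change in activity with no change of its transcript, and its processing was not measured.

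Per length, the highest member was Hmgcs1 and the lowest Dhcr7. Divided by the exonic length in kilobases, the mean CPM over all 6 libraries was 68.4 ± 6.78 for Hmgcs1, 24.6 ± 3.998 for Fdft1, 22.7 ± 3.84 for Srebf2, 18.1 ± 2.72 for Cyp51, 14.7 ± 2.28 for Idi1, 12.4 ± 2.51 for Sqle and 5.30 ± 0.93 for Dhcr7 (SD over 6 libraries). The lowest library of Hmgcs1, at 61.4 CPM per kilobase, was above the highest library of every other member, and the highest library of Dhcr7, at 6.65, was below the lowest of every other. The libraries of each neighbouring pair in between overlapped, while the lowest library of Fdft1, at 18.4, was above the highest of Idi1, at 17.3, and of Sqle, at 16.1. Within each of the 6 libraries Srebf2 was above Cyp51, Cyp51 above Idi1 and Idi1 above Sqle.

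The members had partly similar profiles over the 6 libraries. After subtracting each gene's mean over the 6 libraries, the mean log2 CPM of the 7 members in control 1, 2 and 3 was 0.28, -0.05 and 0.03, and in shDNAJB1 1, 2 and 3 it was -0.35, -0.04 and 0.12. Control 1 and shDNAJB1 1 were thus the outer libraries, and the other 4 lay within 0.12 of the mean. All 7 members were highest in control 1, as were 23.0% of all tested genes, and 6 of the 7 were lowest in shDNAJB1 1, as were 21.7% of all tested genes. Those same 6 were both, as were 5.51% of all tested genes. The closest pair was Idi1 and Cyp51, whose centred log2 CPM differed by 0.07 (root mean square over 6 libraries), and the farthest was Hmgcs1 and Srebf2, at 0.32. Pairs with Hmgcs1 ranged from 0.22 to 0.32. Pairs without it ranged up to 0.23, for Dhcr7 and Srebf2, so that Dhcr7 was as far from Srebf2 as Hmgcs1 was from Idi1, at 0.23.

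**Figure D2:**
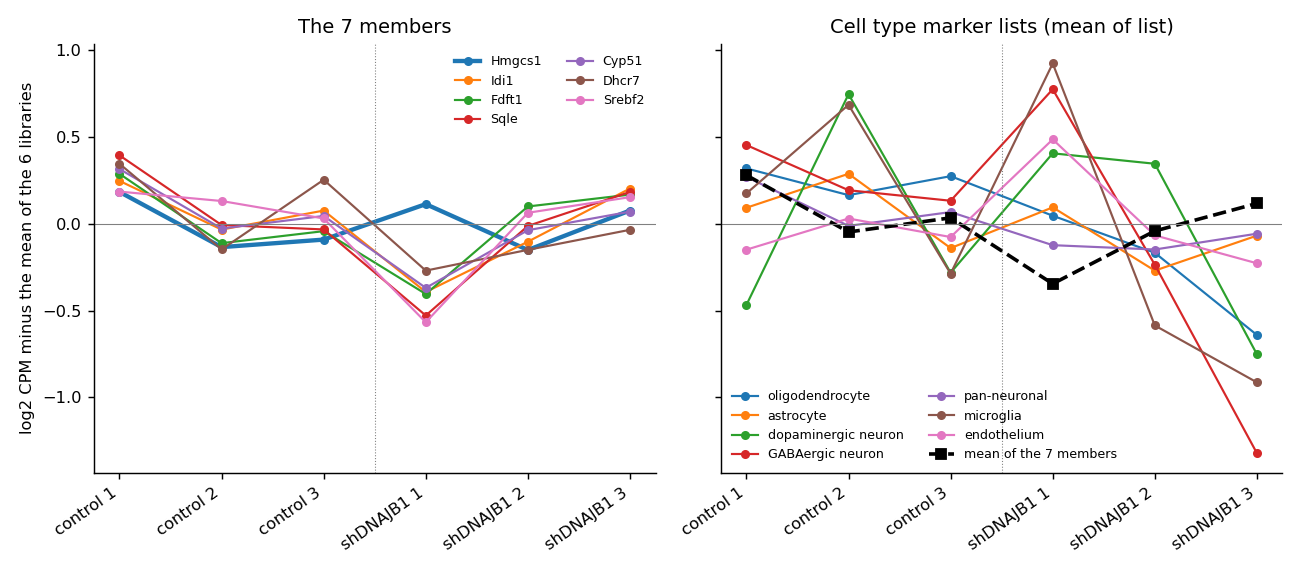
Log2 CPM minus each gene's mean over the 6 libraries, for the 7 members on the left and for the means of 7 cell type marker lists on the right, where the dashed black line is the mean of the members. The members other than Hmgcs1 dip together in shDNAJB1 1. The oligodendrocyte, dopaminergic, GABAergic, microglia and endothelium lists are lowest in shDNAJB1 3, and the astrocyte and pan-neuronal lists in shDNAJB1 2.

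Hmgcs1 left the other members in shDNAJB1 1. Its CPM was 3.99, 4.23 and 4.43 times that of Sqle in control 1, 2 and 3, 4.19 and 4.29 times in shDNAJB1 2 and 3, and 7.21 times in shDNAJB1 1. Against Srebf2 the ratio was 1.62 to 1.95 in the other 5 libraries and 3.13 in shDNAJB1 1. Against Cyp51 it was 3.60 to 3.97 in the other 5 libraries and 5.52 in shDNAJB1 1. The ratio to every other member was highest in shDNAJB1 1, also for Fdft1 (4.36), Idi1 (8.72) and Dhcr7 (13.4). A ratio within libraries does not depend on how they are scaled to each other. It rests on a single library, was noticed in the data and has no test.

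**Figure D3:**
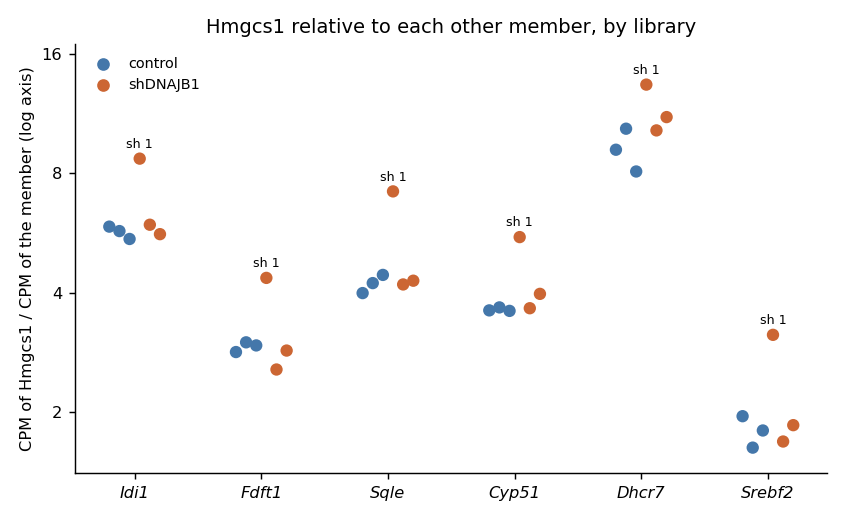
CPM of Hmgcs1 divided by the CPM of each other member in each library, on a log axis, with blue points for control and orange points for libraries labelled shDNAJB1. In each of the 6 columns shDNAJB1 1 is the highest point, from 3.13 for Srebf2 to 13.4 for Dhcr7.

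The outer libraries also stood apart in other measures. Mitochondrial transcripts took 10.4% of the counts in control 1 and 11.8% in shDNAJB1 1, against 8.12% to 9.03% in the other 4 libraries. Protein-coding genes with under 1500 exonic bases had a median centred log2 CPM of 0.16 in control 1 and 0.19 in shDNAJB1 1, against -0.10 to -0.06 in the others. The mitochondrial and short-gene measures were high in both outer libraries, whereas the sterol genes were high in control 1 and low in shDNAJB1 1. Total counts had the same direction as the sterol genes there, with the highest total in control 1 (38468363) and the lowest in shDNAJB1 1 (24541386). The total of shDNAJB1 3 was 38056533, close to that of control 1. Protein-coding genes as long as the members, from 3505 to 7184 exonic bases, had medians from -0.01 to 0.03 in all 6 libraries. The part of these measures in the members' values was not tested.

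Without the outer libraries 5 of the 6 members with a value below 0 had one above 0. Leaving out control 1 moved the median log2 fold change of the members from -0.20 to -0.09, and leaving out shDNAJB1 1 moved it to -0.0445. With both left out, a choice made after seeing the data, the median was 0.0435, and 6 of the 7 members had a log2 fold change above 0, from 0.0148 for Cyp51 to 0.22 for Fdft1. Dhcr7 alone had a value below 0 there, at -0.15. Among single members, Srebf2 was at -0.0097 without shDNAJB1 1 and at -0.33 without shDNAJB1 3. Sqle was at -0.0450 and -0.38 in the same fits, and Idi1 at -0.0445 and -0.34. In edgeR's quasi-likelihood test 0 genes passed in any of these fits.

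**Figure D4:**
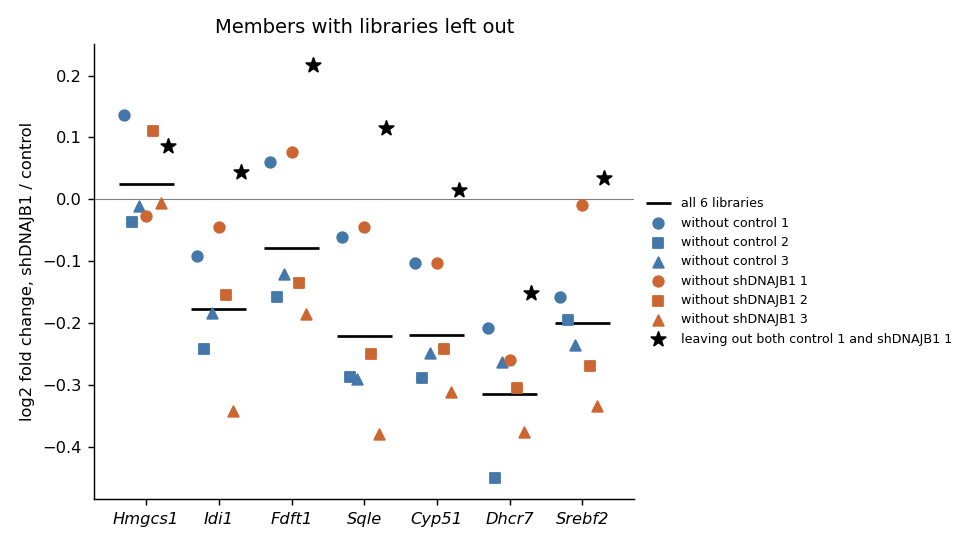
Log2 fold change of each member with all 6 libraries (black line), with 1 library left out (blue for controls, orange for libraries labelled shDNAJB1) and with both control 1 and shDNAJB1 1 left out (star). Leaving out control 1 or shDNAJB1 1 moves the members other than Hmgcs1 upward, past 0 for Fdft1, while Hmgcs1 is at 0.14 without control 1 and at -0.03 without shDNAJB1 1, and the stars are above 0 for all members except Dhcr7.

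Of the other 14 enzymes of the pathway 0 passed the test, and 11 had a log2 fold change below 0, with a median of -0.10. In the mevalonate pathway 3 of 5 (Acat2, Mvk, Pmvk, Mvd and Fdps) had a log2 fold change below 0, with a median of -0.02. In the sterol branch 8 of 9 did, with a median of -0.15, and 7 of the 9 were lowest in shDNAJB1 1. Acat2, which makes acetoacetyl-CoA in the cytosol, was at 74.5, 61.7 and 62.2 CPM in control 1, 2 and 3, and shDNAJB1 1, 2 and 3 had 60.6, 57.1 and 58.7 CPM. Every library labelled shDNAJB1 was below every control for Acat2, as for 7.06% of all tested genes, by a gap that was small beside the spread of the controls. Its log2 fold change was -0.17 (SE 0.11, 95% interval -0.43 to 0.09, edgeR adjusted p = 0.799).

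**Figure D5:**
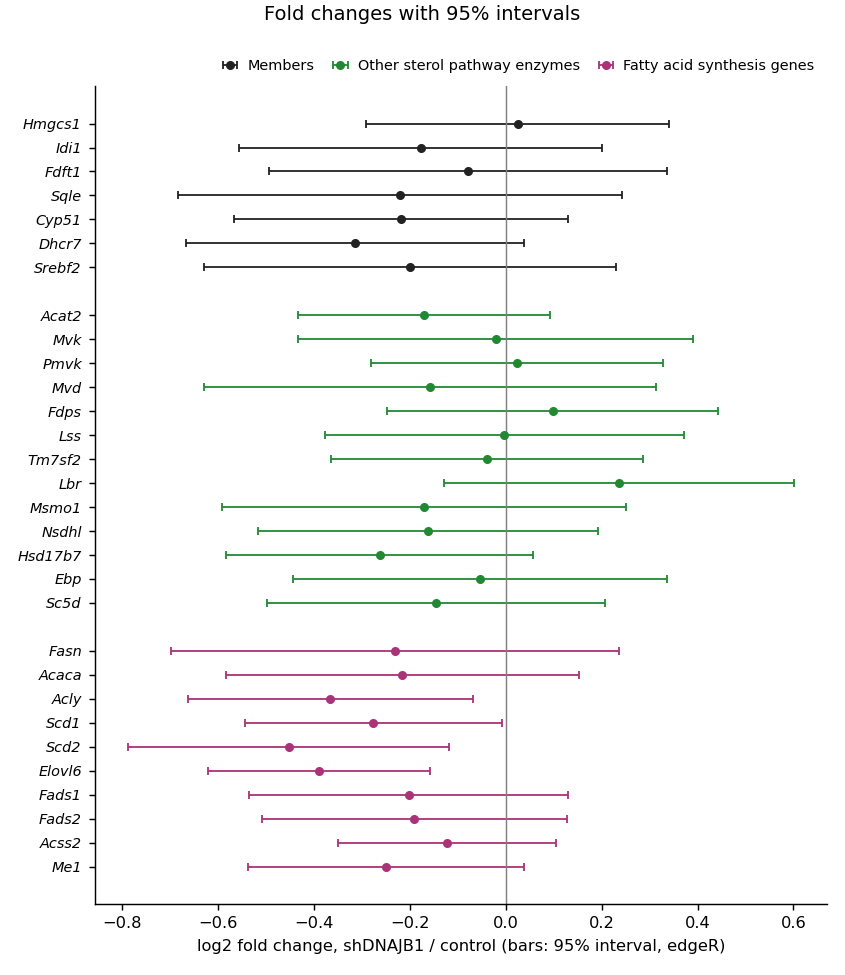
Log2 fold changes of the 7 members, 13 other sterol pathway enzymes and 10 fatty acid synthesis genes, with 95% intervals from edgeR's quasi-likelihood fit. The intervals of all members include 0, and those of Elovl6, Scd2, Acly and Scd1 lie below 0 before adjustment over all genes.

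Some sterol branch enzymes that are no members followed the members from library to library. Among 12330 genes with a mean of at least 5 CPM, ranked by the root mean square difference from the members' mean profile, Nsdhl, Msmo1 and Sc5d were within the nearest 5%, at 0.06, 0.07 and 0.08, against a median of 0.25 over all ranked genes. That is 3 of the 14 other enzymes, and these names were chosen after their values were seen. Of the members, which make up that profile themselves, 4 were within the nearest 5%, and Hmgcs1 was at 0.21. The nearest genes that are no members were Mapre2, G3bp2, Smarca2, Socs5, Scamp1 and Srpr, with differences of 0.03 to 0.04, and none of these 6 is a sterol enzyme.

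Transcripts of genes that process or regulate SREBP, a list that also holds Srebf1 itself, showed no call. Of 9 genes of SREBP processing and regulation 0 passed and 7 had a log2 fold change below 0, with a median of -0.09. Insig1, itself a known SREBP target that retains SCAP in the endoplasmic reticulum, was at 167, 129.9 and 128 CPM in control 1, 2 and 3 and at 109.7, 125 and 126 CPM in shDNAJB1 1, 2 and 3, a log2 fold change of -0.23 (SE 0.14, edgeR adjusted p = 0.778). Its groups did not overlap, by a gap that was small beside the spread of the controls. Insig2, the paralog of Insig1, was at 56.5 ± 0.67 and 51.8 ± 3.27 CPM (SD, n = 3 each), also with separate groups. In 3 of the 9 genes every library labelled shDNAJB1 was below every control, against 7.06% of all tested genes.

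Genes of fatty acid synthesis, which SREBP1 is known to drive, showed no call either. Of the 10 genes of that list 6 were lowest in shDNAJB1 1, against 21.7% of all tested genes, and Fads2 was lowest in control 3. All 10 had a log2 fold change below 0, against 49.2% of all tested genes, with a median of -0.24, and 0 passed. In 5 of the 10 every library labelled shDNAJB1 was below every control, against 7.06% of all tested genes. Elovl6, a fatty acid elongase gene, was at 119, 115 and 114 CPM in control 1, 2 and 3 and at 83.4, 93.0 and 88.7 CPM in shDNAJB1 1, 2 and 3, a log2 fold change of -0.39 (SE 0.10, edgeR adjusted p = 0.765). Here shDNAJB1 2 and 3 were below the controls as well as shDNAJB1 1. Scd2, the main stearoyl-CoA desaturase gene of brain, was at 3107.4 ± 242 and 2269.6 ± 185 CPM (SD, n = 3 each). Acly, which supplies cytosolic acetyl-CoA, was at 282 ± 33.97 and 219 ± 15.2 CPM, and Scd1 at 557 ± 29.5 and 459.6 ± 24.8 CPM. None of the 10 was among the nearest 5% to the members' profile. Whether this list differs from the sterol genes was not tested.

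Uptake, transport and export genes showed no call. Of 10 genes of cholesterol uptake and intracellular transport 0 passed and 8 had a log2 fold change below 0, with a median of -0.12. Npc1, which moves cholesterol out of lysosomes, was at 136, 145 and 137 CPM in control 1, 2 and 3 and at 107, 112 and 94.4 CPM in shDNAJB1 1, 2 and 3, a log2 fold change of -0.41 (SE 0.11, edgeR adjusted p = 0.765). For Npc1 all 3 libraries labelled shDNAJB1 were below the controls by more than the spread of either group. Stard4, a sterol carrier gene, was at 48.9 ± 2.05 and 41.3 ± 5.69 CPM (SD, n = 3 each). Osbp and Lipa had separate groups with log2 fold changes of -0.12 and -0.10. For Lipa the gap was small, from 36.8 CPM in control 2 to 36.6 CPM in shDNAJB1 1. In 4 of these 10 genes every library labelled shDNAJB1 was below every control, against 7.06% of all tested genes. Of 10 genes of export, turnover and esterification 0 passed and 7 were below 0, with a median of -0.12. Abcg1, a sterol exporter gene, was the only one with separate groups, at 84.3 ± 4.74 and 73.9 ± 5.13 CPM, against that share of 7.06%.

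Among enzymes that lead from the mevalonate pathway to other isoprenoids, 0 of 8 passed and 7 had a log2 fold change below 0, with a median of -0.12. Dhdds, for dolichol synthesis, was at 66.9 ± 7.75 and 56.6 ± 1.51 CPM (SD, n = 3 each). Pdss1, which makes the side chain of ubiquinone, was higher in every library labelled shDNAJB1, as were 6.98% of all tested genes, at 8.51, 12.2 and 12.98 CPM in control 1, 2 and 3 and 17.5, 16.2 and 13.3 CPM in shDNAJB1 1, 2 and 3, a log2 fold change of 0.48 (SE 0.20, edgeR adjusted p = 0.765).

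Cell type marker lists also differed between libraries. All 13 oligodendrocyte markers had a log2 fold change below 0 (median -0.52, 0 passed), with a summed level of 15823.4 to 17022.3 CPM in the controls and 9237.8 to 16574.4 CPM in the libraries labelled shDNAJB1. That list was lowest in shDNAJB1 3, with a mean centred log2 CPM of -0.64, where the members were at 0.12. It stood at 0.05 in shDNAJB1 1, where the members were at -0.35. For the list, control 1, 2 and 3 were at 0.32, 0.17 and 0.28, so shDNAJB1 1 was below every control, as for the members' mean. The summed level of the list in shDNAJB1 1, 16574.4 CPM, was inside the control range. Mbp, the gene of myelin basic protein, was at 3530.8 CPM in shDNAJB1 3 and at 7210.4 CPM in shDNAJB1 1. The myelin gene regulator Myrf (157 ± 3.26 and 109 ± 14.8 CPM, SD, n = 3 each) and the galactolipid enzyme gene Ugt8a (167 ± 10.8 and 110.4 ± 19.0 CPM) had the smallest unadjusted p of the list. In 9 of the 13 every library labelled shDNAJB1 was below every control, against 7.06% of all tested genes. An unadjusted p under 0.05 by edgeR was also found for 9, against 3.33% of all tested genes counting lower genes alone. In bulk tissue, fewer cells of a type and less RNA per cell cannot be told apart.

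Astrocyte markers, of cells that also make sterols, had 8 of 12 below 0 (median -0.15, 0 passed), with a summed level of 5985.0 to 7301.0 CPM in the controls and 5335.7 to 6501.2 CPM in the libraries labelled shDNAJB1. Their mean centred log2 CPM was 0.10 in shDNAJB1 1, where 2 of the 12 were lowest, against 21.7% of all tested genes. Groups were separate for 2 of the 12, both lower, against 7.06% of all tested genes. A log2 fold change above 0 was found for 4 of the 12: Slc1a3, Gfap, Fgfr3 and Gjb6. Slc1a2, the glutamate transporter gene, was at 1860.0 ± 221 and 1427.1 ± 156 CPM (SD, n = 3 each), and was lowest in shDNAJB1 1, at 1293.5 CPM. S100b was at 262 ± 15.1 and 185 ± 59.2 CPM, and Glul at 2046.9 ± 258 and 1859.1 ± 149 CPM. In shDNAJB1 1, the lowest library of the sterol genes, microglia, GABAergic and endothelial lists were at their highest, with means of 0.92, 0.78 and 0.49. Pan-neuronal markers were at 0.27 in control 1, where the members were at 0.28, and at -0.15 to -0.06 in the libraries labelled shDNAJB1. Of the 8 pan-neuronal markers 6 were highest in control 1, against 23.0% of all tested genes. In shDNAJB1 1, 3 of the 8 were lowest, against 21.7%, and all 8 had a log2 fold change below 0, against 49.2%. Dopaminergic markers were at -0.47 in control 1 and 0.41 in shDNAJB1 1, and oligodendrocyte precursor markers at 0.11 and -0.05. The part of cell composition in the members' values was not tested.

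Abundant markers of the remaining lists had overlapping groups (mean ± SD, n = 3 each). Slc6a3, the dopamine transporter gene, was at 605 ± 414 CPM in control and 484 ± 318 CPM in the libraries labelled shDNAJB1. Snap25, of synaptic vesicle release, was at 2234.5 ± 479.5 and 1789.0 ± 316 CPM. The vascular and glial genes were Flt1 of endothelium (108 ± 10.5 and 120.2 ± 35.05 CPM) and Ptprz1 of oligodendrocyte precursors (409 ± 73.2 and 329 ± 23.3 CPM). Single genes of these lists with separate groups were Sox10 (82.1 ± 0.815 and 55.8 ± 8.57 CPM), Gad2 (478 ± 62.6 and 273 ± 131 CPM), Nefl (941 ± 29.9 and 623 ± 234 CPM) and Cldn5 (19.5 ± 1.14 and 25.1 ± 4.87 CPM). Over all tested genes, groups were separate for 14.0%. The 9 of 13 oligodendrocyte markers with separate groups included Aspa (59.5 ± 3.28 and 38.5 ± 7.81 CPM) and Opalin (47.3 ± 6.78 and 26.7 ± 8.37 CPM).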

How the data were processed

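The labels' protocols name Trizol for total RNA and a strand-specific TruSeq kit. The authors deposited raw counts per Ensembl gene, 1 file per library. FastQC 0.11.5, STAR 2.5.3a, Cuffnorm, DESeq 1.16.1 and mm10 are named in the submitters' processing notes; no source used here gives the counting tool, annotation release or strand setting. GENCODE M21 gave symbols for 55154 of 55335 identifiers.

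Sample titles gave the groups. Genes passed filterByExpr (count of 10, total of 15), and TMM scaling and edgeR 4.0.16 (quasi-likelihood, R 4.3.3) gave the tests. P-values were adjusted by Benjamini-Hochberg over all tested genes, with a threshold of 0.05. CPM are TMM-scaled. The SE is the log2 fold change divided by the square root of F, and the interval is 95%. Profiles used log2 CPM with a prior count of 2. Alternatives used DESeq2 1.42.0, limma 3.58.1, other scalings and filters, a replicate block and left-out libraries. The procedure was tested on simulated data.

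The members and lists were chosen with earlier results of these data known. Named were the members, Dnajb1, up to 4 genes per list with separate groups and the smallest unadjusted p, the most abundant and smallest-p oligodendrocyte and astrocyte markers, and the 6 nearest profiles. For the other marker lists it was the most abundant gene. Some genes that this rule names are not reported here.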

Additional observations from a re-analysis of the deposited data

How the results depend on the processing

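DESeq2's Wald test called 56 genes, none of them a member, against 0 in edgeR's test; the cause was not tested, and each of the other 13 alternatives called 0. Leaving out both control 1 and shDNAJB1 1, chosen after seeing the data, gave log2 fold changes of 0.0148 for Cyp51, 0.0435 for Idi1, 0.116 for Sqle, 0.0339 for Srebf2, 0.218 for Fdft1 and 0.0872 for Dnajb1, all below 0 with 6 libraries, and medians of 0.0435 for the members and 0.0557 for the other 14 enzymes. Leaving out 1 library gave -0.0372 to 0.137 for Hmgcs1, -0.186 to 0.0770 for Fdft1 and -0.170 to 0.0110 for Dnajb1, whose signs changed, and medians of -0.334 to -0.0445 for the members and -0.181 to -0.0180 for the other enzymes, which kept theirs. The cause was not tested. Other scalings and filters and limma-voom changed no sign of a member, and adjusted p-values of members ran from 0.284 to 0.999 over 14 alternatives. Between libraries with the same number, deviations from the group mean had r = 0.04, -0.02 and 0.08 across genes. Control 1 and shDNAJB1 1 both had a higher mitochondrial share than the other libraries, at 10.4% and 11.8%. The r values therefore do not settle whether the numbers pair libraries. The replicate block gave a members' median of -0.22 and 0 genes. With 3 libraries per group, each member's 95% interval includes 0.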
